A study of Mus musculus with 24 samples.

Results

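NIH-3T3 cells, an established mouse embryonic fibroblast line, were compared at 3 h and at 1 h after a change to fresh medium without interferon (mock treatment). The comparison holds 7 of the 24 arrays of the study, 3 at 3 h and 4 at 1 h, and was chosen by the sample titles. The mock 3 h cells received 500 µM 4-thiouridine (4sU), which cells incorporate into newly made RNA, from 150 to 180 min. The mock 1 h cells received 200 µM 4sU over the full 60 min, so time, 4sU dose and labelling window change together and cannot be told apart. All arrays carried total cellular RNA, not the labelled fraction. Beside them, 3 arrays of mock cells at 1 h without 4sU and the arrays of cells given IFN-alpha or IFN-gamma at 100 U/ml (3 each at 3 h, 4 each at 1 h, with the same 4sU scheme) are used where named. Cells before the medium change are not analysed here, so a lower value at 3 h is a difference from 1 h and not from a resting level. The labels do not say that replicates were separate cultures, so the p-values cover array-to-array spread that may be technical only.

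Fresh medium brings growth factors and nutrients to fibroblasts. Their receptors activate the MAP kinases and other pathways, which switch on immediate early genes without new protein synthesis. Many of these genes encode transcription factors with short-lived mRNA, and others encode phosphatases, Sprouty proteins and RNA-binding proteins that shut the signal off again. Secreted ligands, chemokines and matrix or cell cycle genes follow on different schedules.

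Values are GCRMA signals on the log2 scale, and a level of log2 4 was taken as background. Every difference is the mean of the mock 3 h arrays minus the mean of the mock 1 h arrays on that scale, with its standard error (SE), from n = 3 and n = 4 arrays. A gene was called at an adjusted p under 0.05 in limma (Benjamini-Hochberg over 19305 probe sets). Where the lower group lay below log2 4 on average, the fold was computed against that level and is written "at least". The 9 fibroblast markers were all above background (median 12.5 in mock 3 h and 12.1 in mock 1 h). Of 10 leukocyte markers, Cd14 alone lay above it (5.76 in mock 3 h and 5.31 in mock 1 h), and none of 12 epithelial and endothelial markers did.

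The mock 1 h arrays were less uniform than the mock 3 h arrays. The median SD of a probe set was 0.127 in mock 3 h and 0.401 in mock 1 h, and the fit shares 1 spread over all 7 groups of the study. In mock 1 h replicate 2 the signal of beta-actin at its 3′ end was 2.99 above that at its 5′ end, a gap that lay between 0.796 and 0.940 in mock 3 h and between 0.837 and 1.37 on the other 3 mock 1 h arrays. A wide gap marks RNA that is short or incompletely copied at the 5′ end. Replicate 2 of both interferon groups at 1 h (3.09 and 3.43) and replicates 2 and 3 without 4sU (2.22 and 3.31) had wide gaps too, and these 5 are called the arrays of low 5′ signal. Their part in the differences was not tested beyond the values without them.

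Of 9421 genes measured, 513 were called higher in mock 3 h (5.45%) and 397 lower (4.21%), and the median difference over all genes was 0.10. Among the called genes the median size was 0.84 for those higher and 0.92 for those lower. Changes over 4-fold were found in 14 genes called higher and 33 called lower. The arrays of both groups did not overlap for 499 of the 513 and 387 of the 397, against 1794 higher and 975 lower genes without overlap among all 9421. By probe sets, 2188 were called, 1052 higher and 1136 lower. With each array centred on its median the split was 780 higher and 1332 lower, and without the arrays of low 5′ signal it was 2053 higher and 1468 lower. The number of called probe sets was 984, 1034 and 1300 without mock 3 h replicates 1, 2 and 3, and 1301 without mock 1 h replicate 2. With each of the 7 arrays left out in turn, 150 of the 513 and 174 of the 397 genes stayed called every time, as did 11 of the 14 and 29 of the 33 that differed by over 4-fold. With only the 7 mock arrays fitted, 163 genes were called higher and 149 lower.

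Egr3, Hbegf, Npas4, Tnfaip3 and Lif had the largest of the 15 falls named, which were chosen among called genes whose arrays do not overlap. Egr3, a zinc finger factor of the early growth response family on chromosome 14, had 8.01, 7.95 and 8.05 in mock 3 h cells, against 11.34, 11.46, 11.73 and 11.89 in mock 1 h cells. The groups were far apart and the 3 h arrays nearly equal, and Egr3 was 12.1-fold lower (-3.60 ± 0.19 SE, adjusted p = 9.40e-11). Hbegf, which encodes a membrane-bound ligand of the EGF receptor, had 7.09, 7.04 and 7.09 in mock 3 h, against 10.76, 9.56, 9.90 and 10.65 in mock 1 h (8.84-fold lower, -3.14 ± 0.32, adjusted p = 1.52e-06). Lif, a cytokine that signals through gp130, had 4.71, 4.92 and 5.16 in mock 3 h, against 8.01, 7.93, 7.84 and 7.97 in mock 1 h. In this gene all arrays of each time lay within a narrow band, and the difference was 8.05-fold (-3.01 ± 0.16, adjusted p = 9.40e-11). Npas4, an activity-induced transcription factor known mainly from neurons, had 4.04, 4.45 and 3.98 in mock 3 h, against 7.20, 7.09, 6.90 and 7.71 in mock 1 h (-3.07 ± 0.23, adjusted p = 2.02e-08). It was close to background at 3 h.

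Tnfaip3 encodes A20, a ubiquitin-editing inhibitor of NF-kB. It lay below background on all mock 3 h arrays (2.92, 3.92 and 3.77) and at 6.55, 6.54, 6.75 and 6.44 on the mock 1 h arrays. It was at least 5.95-fold lower (-3.03 ± 0.23, adjusted p = 3.54e-08). Ereg, another EGF receptor ligand, averaged 7.96 ± 0.35 in mock 3 h and 10.9 ± 0.29 in mock 1 h (SD), a 7.64-fold fall. Noct, a rhythmically expressed phosphatase once described as a deadenylase, was 6.79-fold lower (-2.76 ± 0.19). F3, tissue factor, the starter of coagulation, was 6.33-fold lower (-2.66 ± 0.34).

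Rgs16, which shortens G protein signals, fell by 2.49 ± 0.39, and Ptger4, a prostaglandin E2 receptor, fell by 2.37 ± 0.19. A second probe set of Ptger4 differed by -1.43 without passing (adjusted p = 0.0580). Pdk4, a kinase that restrains pyruvate oxidation, fell by 2.35 ± 0.31, and Foxc2, a forkhead factor of mesenchyme, fell by 2.34 ± 0.27. The plot of the leading genes by array shows how far apart the groups lay in each of the 15 falls and of the 15 largest rises, with the lack of overlap set by the choice of genes.

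**Figure D1:**
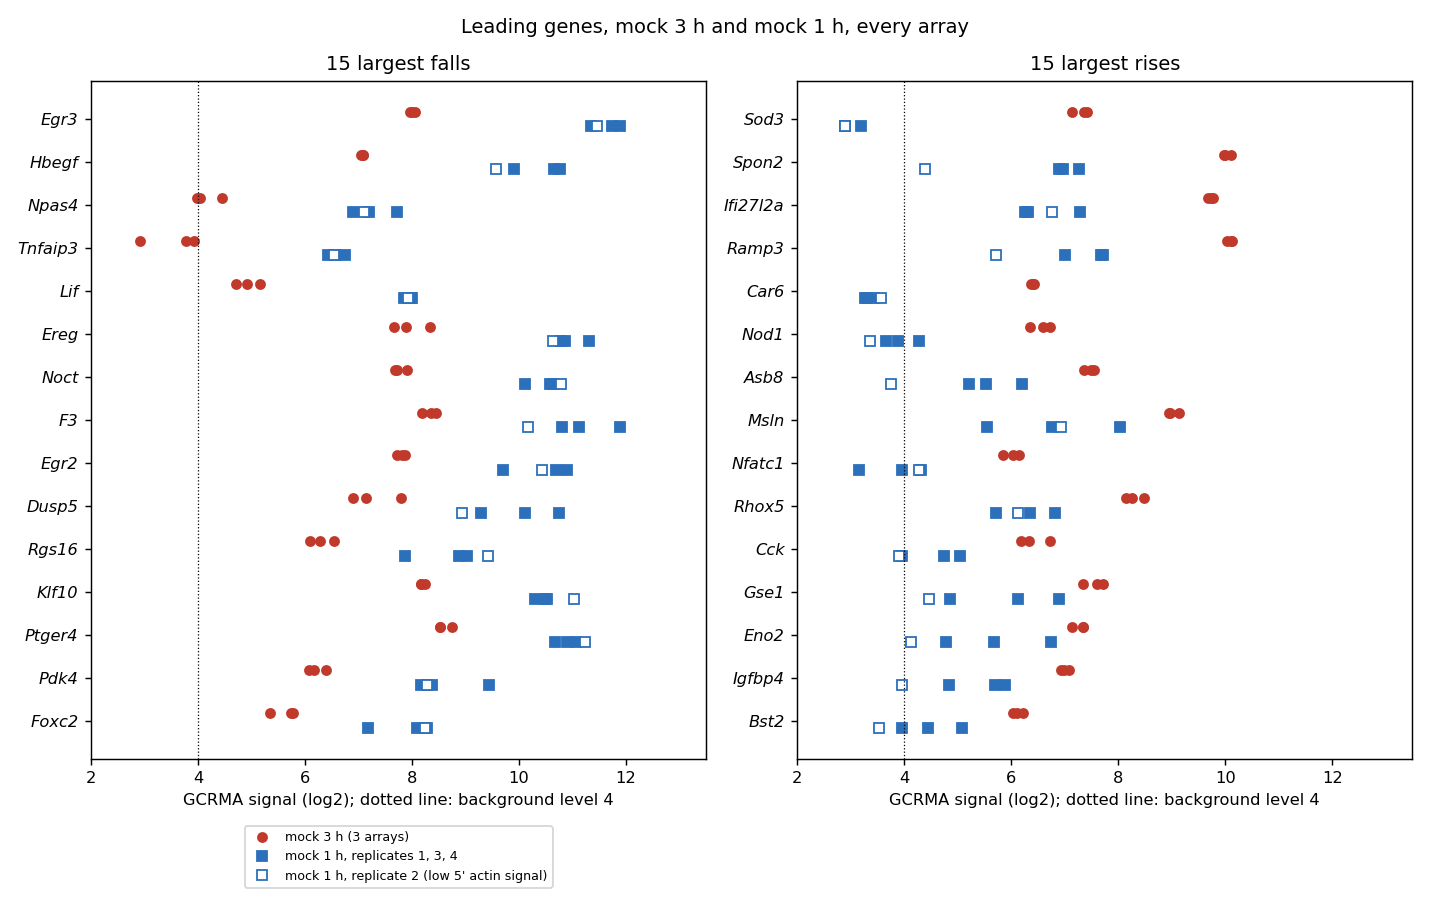
GCRMA signal (log2) on every array for the 15 called genes with the largest fall and the 15 with the largest rise in mock 3 h, chosen among genes whose arrays do not overlap. Circles are the 3 mock 3 h arrays and squares the 4 mock 1 h arrays, with the open square marking replicate 2; Egr3 sits at 7.95 to 8.05 in mock 3 h and at 11.34 to 11.89 in mock 1 h.

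Of 29 immediate early transcription factors measured, 18 were called lower and 0 higher, where 4.21% and 5.45% of all genes were. The median difference was -1.26, against 0.10 over all genes. The differences ran from -3.60 to 0.13, and 27 of the 29 were below 0. Egr2, a relative of Egr3, averaged 7.80 ± 0.08 in mock 3 h and 10.4 ± 0.52 in mock 1 h, a 6.20-fold fall (adjusted p = 6.31e-06). Klf10, a Krüppel-like repressor that TGF-beta also induces, fell by 2.39 ± 0.19. Nr4a1, an orphan nuclear receptor, had 8.68, 9.26 and 9.07 in mock 3 h, against 11.57, 9.88, 10.98 and 12 in mock 1 h (-2.10 ± 0.47, adjusted p = 0.00627). The spread of the 1 h arrays was wide in this gene, yet no array of one time reached those of the other. Klf4, another Krüppel-like factor, fell by 1.92 ± 0.24, while its second probe set differed by -0.96 without passing (adjusted p = 0.216).

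Egr1 and the AP-1 subunit genes Jun and Fos fell as well. Egr1 had 11.35, 11.46 and 11.51 in mock 3 h, against 12.27, 12.33, 12.21 and 12.53 in mock 1 h, which is 1.87-fold lower (-0.90 ± 0.13, adjusted p = 1.29e-04). Its arrays were tight at both times. Jun had 9.19, 9.29 and 9.56 in mock 3 h, against 11.13, 9.92, 10.38 and 11.02 in mock 1 h (-1.26 ± 0.29, adjusted p = 0.00767). A second probe set of Jun fell further, to 7.62 in mock 3 h, against 9.76 in mock 1 h (-2.14, adjusted p = 3.03e-08). Fos had 8.17, 8.45 and 8.46 in mock 3 h, against 9.22, 9.18, 9.38 and 10.33 in mock 1 h (-1.17 ± 0.33, adjusted p = 0.0272). The Fos arrays did not overlap, but the call was lost without mock 1 h replicate 4 or without any mock 3 h array (adjusted p = 0.0631 to 0.119). Myc, the growth regulator, did not pass. It averaged 8.83 ± 0.30 in mock 3 h and 9.08 ± 1.02 in mock 1 h (adjusted p = 0.766), and the sign turned without mock 1 h replicate 4 (0.18). Ier2 did not pass either, with 8.75, 8.76 and 9.10 in mock 3 h, against 9.58, 5.21, 9.38 and 10.76 in mock 1 h. Its low value is that of mock 1 h replicate 2, and without that array the difference was -1.04 (adjusted p = 0.676). The count of 18 was between 14 and 18 with single arrays left out, and 21 without the arrays of low 5′ signal. It was 12 with only the 7 mock arrays fitted and 23 with array weights.

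**Figure D2:**
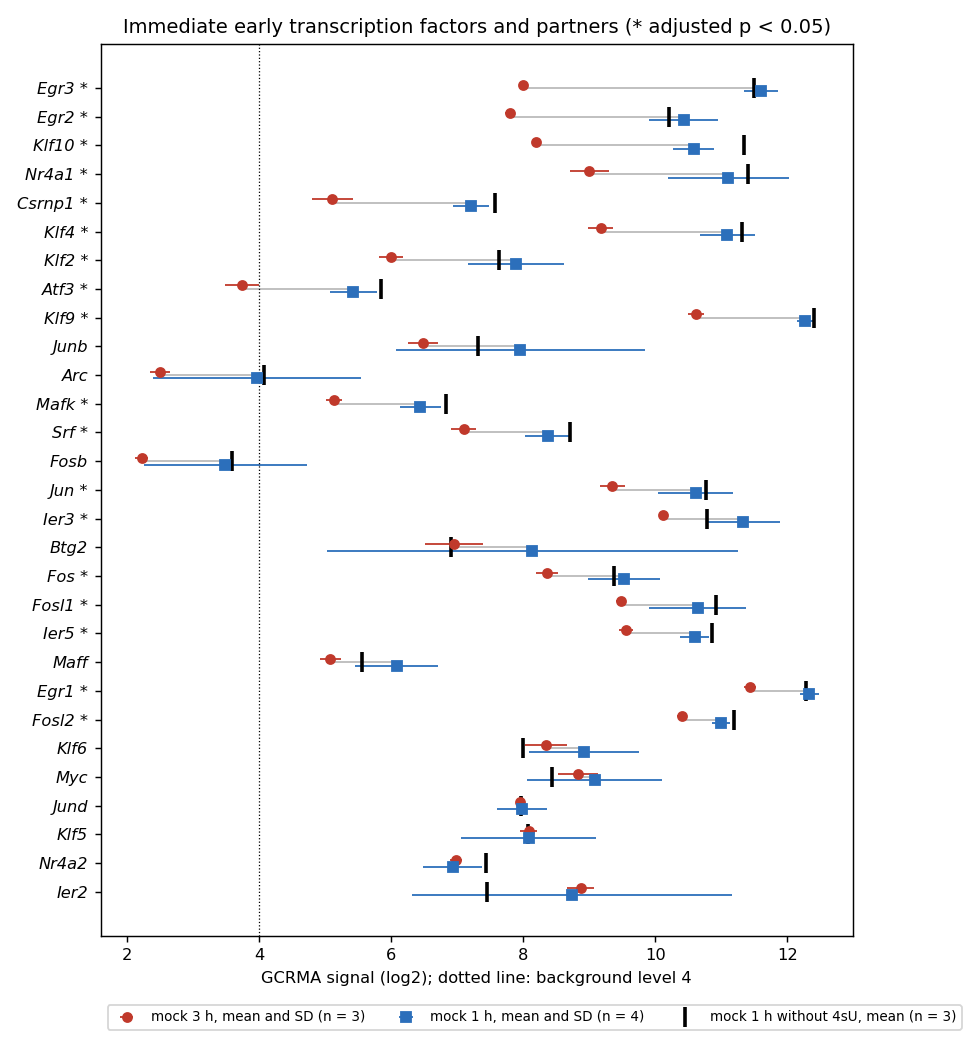
Mean signal (GCRMA, log2) of the 29 immediate early transcription factors and partners, with SD, in mock 3 h (circles) and mock 1 h (squares), and the mean of mock 1 h without 4sU (ticks). Asterisks mark the 18 called genes; Egr3 has the widest gap, at 8.0 in mock 3 h and 11.6 in mock 1 h.

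Among inhibitors of the MAP kinase route, 15 dual-specificity phosphatases, Sprouty proteins and relatives were measured. Of these 6 were called lower and 0 higher, where 4.21% and 5.45% of all genes were. The other 9 did not pass. The differences ran up to 0.93 with a median of -0.61, against 0.10 over all genes. Dusp5, a nuclear phosphatase of ERK, had 6.89, 7.14 and 7.80 in mock 3 h, against 10.11, 8.93, 9.28 and 10.76 in mock 1 h (5.64-fold lower, -2.49 ± 0.46, adjusted p = 0.00140). Spry4 lay near or below background in mock 3 h (4.09, 3.74 and 3.41), against 5.78, 6.30, 5.60 and 6.41 in mock 1 h (at least 3.98-fold lower, adjusted p = 8.63e-08). Both groups of arrays were separate in both genes, which for Dusp5 was set by its choice among the 15 largest falls. Spry2 fell by 2.02 ± 0.25, and Dusp6, a cytoplasmic ERK phosphatase, fell by 1.36 ± 0.29. Errfi1, which binds and inhibits EGF receptor kinases, averaged 10.5 ± 0.08 in mock 3 h and 12.5 ± 0.19 in mock 1 h (-2.03 ± 0.15), and its second probe set differed by -1.53 without passing (adjusted p = 0.147). Dusp1, which acts on p38 and JNK, did not pass, with 9.36, 9.57 and 9.65 in mock 3 h, against 9.02, 9.07, 8.91 and 9.95 in mock 1 h (0.29 ± 0.31, adjusted p = 0.536).

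Genes that restrain NF-kB or destroy cytokine mRNA followed, with 6 of 16 called lower and 0 higher, against 4.21% and 5.45% of all genes. Their median was -0.62, against 0.10 over all genes. Beside Tnfaip3 they included Zc3h12a, the RNase Regnase-1 that cuts cytokine mRNA, which fell to 4.84 ± 0.24 in mock 3 h, against 7.08 ± 0.33 in mock 1 h (4.74-fold, adjusted p = 7.73e-07). Nfkbiz, a nuclear IkB protein, fell by 1.88 ± 0.19. Zfp36, tristetraprolin, which binds AU-rich mRNA and speeds its decay, had 6.64, 6.61 and 6.55 in mock 3 h, against 8.77, 7.42, 8.37 and 9.54 in mock 1 h (-1.93 ± 0.52, adjusted p = 0.0213). Its arrays did not overlap, but the call was lost without mock 1 h replicate 4 or without any mock 3 h array (adjusted p = 0.0624 to 0.0722).

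Promoter stretches of called genes named above are shown because serum response factor, CREB and AP-1 are the factors best known for switching on early genes. RefSeq windows on GRCm38.p6 reach from 250 bases before a gene's start to 50 after it, and the bases before the start were searched on both strands. The motifs were the CArG box of serum response factor, the CRE core TGACG and the AP-1 site TGACTCA. The stretches below run 5′ to 3′ on the gene's strand, and capitals mark the named motif on either strand. They were picked because they hold that motif, so its presence in them is set by the choice. Dusp5 (chr19:53529025-53529144, plus strand) and Zfp36 (chr7:28379229-28379348, minus strand) hold CArG boxes, 2 side by side in Dusp5. Nr4a1 (chr15:101266603-101266722, plus strand) holds 2 CRE cores, and Tnfaip3 (chr10:19015437-19015556, minus strand) and F3 (chr3:121723392-121723511, plus strand) hold an AP-1 site each.
Dusp5: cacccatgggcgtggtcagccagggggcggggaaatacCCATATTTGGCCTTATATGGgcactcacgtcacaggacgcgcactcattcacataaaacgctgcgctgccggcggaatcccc
Zfp36: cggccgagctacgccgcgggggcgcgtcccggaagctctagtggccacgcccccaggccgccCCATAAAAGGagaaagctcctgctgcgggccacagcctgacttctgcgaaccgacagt
Nr4a1: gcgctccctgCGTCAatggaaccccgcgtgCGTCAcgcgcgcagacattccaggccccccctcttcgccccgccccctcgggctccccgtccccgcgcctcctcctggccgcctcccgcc
Tnfaip3: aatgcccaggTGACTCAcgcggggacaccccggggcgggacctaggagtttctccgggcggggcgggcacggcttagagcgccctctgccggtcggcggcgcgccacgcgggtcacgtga
F3: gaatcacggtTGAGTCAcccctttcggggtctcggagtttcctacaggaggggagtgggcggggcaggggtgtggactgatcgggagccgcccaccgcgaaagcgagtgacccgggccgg

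Across genes these letters were counted without a test. A CArG box lay in 6 of 312 genes called lower with a window (1.92%), 6 of 427 called higher (1.41%) and 104 of 7724 tested (1.35%). Among the immediate early transcription factors it lay in 2 of 21. The CRE core lay in 15 of these 21 genes (71.4%) and in 32.7% of the genes tested, and in 34.6% of all genes called lower. The AP-1 site lay in 5 of the 22 genes with a window that were lower by over 4-fold (22.7%), in 6.09% of all called lower and in 3.64% of those tested. In the immediate early list it lay in 1 of 21 (4.76%). The full CRE TGACGTCA and the E-box CACGTG, also searched, lay in 2.24% and 9.94% of genes called lower and in 3.16% and 10.4% of those tested. In the immediate early list they lay in 2 (9.52%) and 5 (23.8%) of 21 genes, so the CRE core was not alone in its higher share there. Among the 22 genes lower by over 4-fold, the CRE core lay in 13 (59.1%) and a CArG box in 2 (9.09%). The E-box lay in 3 (13.6%) and the full CRE in 1 (4.55%) of these 22. Each motif searched had a higher share among these 22 than among the genes tested, so the AP-1 site was not alone there. Genes of the early list and those lower by over 4-fold had more windows each (1.43 and 1.41 on average) than genes tested (1.28). More windows raise the chance of a match.

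Of 15 secreted growth factors and cytokines measured, 8 were called lower and 0 higher, where 4.21% and 5.45% of all genes were. Their median was -0.68, against 0.10 over all genes. Beside Hbegf, Lif and Ereg, Il6 had 4.52, 5.38 and 5.08 in mock 3 h, against 6.71, 6.54, 7.47 and 7.64 in mock 1 h (4.27-fold lower, -2.09 ± 0.28, adjusted p = 4.36e-05). IL-6 and LIF both act through gp130. Of 8 chemokines, 3 were called lower and 0 higher (median -0.63). Cxcl1, which attracts neutrophils, had 8.92, 9.10 and 9.21 in mock 3 h, against 11.12, 11.47, 11.30 and 11.08 in mock 1 h (4.49-fold lower, adjusted p = 1.08e-08). Ccl2, which attracts monocytes, had 9.26, 9.22 and 9.28 in mock 3 h, against 12.02, 10.18, 11.71 and 11.82 in mock 1 h (-2.18 ± 0.52, adjusted p = 0.00978). The lowest of its 1 h arrays was replicate 2, and without it the difference was -2.60. Cxcl5 fell by 0.93 ± 0.19. The chemokine calls numbered 3 with every single array left out.

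Other early pathways changed in a few members each, where 4.21% of all genes were called lower and 5.45% higher. Of 17 delayed early serum genes 3 were called lower and 0 higher (median -0.46). Ptgs2, the inducible cyclooxygenase, averaged 12.1 ± 0.24 in mock 3 h and 13.1 ± 0.06 in mock 1 h (-1.04 ± 0.12, adjusted p = 8.92e-06). Phlda1 fell by 2.14 ± 0.57 (adjusted p = 0.0189), a call lost without mock 1 h replicate 4 or any mock 3 h array (adjusted p = 0.0548 to 0.0711). Fst, follistatin, an activin antagonist, fell by 1.21 ± 0.28, while its second probe set differed by 0.21 without passing. Plaur, the urokinase receptor, differed by -1.06 ± 0.56 and did not pass, but passed without the arrays of low 5′ signal (-1.47, adjusted p = 0.00128).

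Of 19 targets of serum response factor and YAP, 3 were called lower and 1 higher, with a median of 0.03. Ccn1 was not called at its probe set of highest mean (-0.85, adjusted p = 0.0870). Other probe sets of Ccn1 differed by -2.43 and -2.42 and were called (adjusted p = 3.29e-05 and 3.03e-05), and another differed by -0.55 without passing. Filip1l fell by 1.52 ± 0.22 and Ankrd1, a mechanically regulated muscle and fibroblast gene, by 1.28 ± 0.21, while a second probe set of Ankrd1 differed by -0.97 without passing (adjusted p = 0.0888). The calls of Ccn2 (-0.48) and Tpm1 (0.79) were lost without mock 1 h replicate 2 or any mock 3 h array and without 1 more mock 1 h array each (adjusted p = 0.0898 to 0.159). Of 14 cAMP-responsive genes 4 were called lower, namely Rgs16, Nr4a1, Ptgs2 and Rgs2, and the median was 0.15. Rgs2 (-0.76) lost its call without any of 5 arrays, the mock 3 h arrays included (adjusted p = 0.0735 to 0.159).

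In the gp130 and SOCS list 3 of 11 genes were called lower, and all 11 differences were below 0 (median -0.39). Bcl6, a transcriptional repressor, fell by 1.48 ± 0.23, with a second probe set at -0.11 that did not pass (adjusted p = 0.875). Pim3 and Cish lost their calls without any of 5 arrays (adjusted p = 0.0631 to 0.161), and Cish lay below background at both times. Of 13 TGF-beta and BMP targets 3 were called lower (Smad7, Tgif1 and Skil, -1.27 to -1.03), and the median was 0.17. Each of the 3 calls was lost without mock 3 h replicate 1 or 2 among others (adjusted p = 0.0579 to 0.171). Jag1, a Notch ligand, had 5.92, 5.95 and 6.26 in mock 3 h, against 7.54, 8.85, 8.21 and 7.77 in mock 1 h (4.13-fold lower, adjusted p = 2.63e-04).

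Clock genes can be reset by fresh medium in fibroblasts, so 16 of them were examined. Bhlhe40, a repressor of the clock, had 7.03, 7.20 and 7.09 in mock 3 h, against 8.61, 7.87, 8.22 and 8.76 in mock 1 h (2.40-fold lower, adjusted p = 0.00114). Dbp, an output factor driven through E-boxes, had 4.48, 4.39 and 4.28 in mock 3 h, against 4.86, 6.05, 5.71 and 5.48 in mock 1 h (-1.14 ± 0.30, adjusted p = 0.0179). The Dbp call was lost without mock 1 h replicate 2 or any mock 3 h array (adjusted p = 0.0541 to 0.0659). None of the 16 was called higher, and the median was -0.17. Per1, the immediate early member of the clock, had 4.50, 4.73 and 5.00 in mock 3 h, against 5.60, 3.72, 4.73 and 7.32 in mock 1 h, and the groups overlapped (-0.60 ± 0.71, adjusted p = 0.584). Without mock 1 h replicate 4 its difference was 0.06. Per2 (-0.39) and Nr1d2 (-1.01, adjusted p = 0.0704) did not pass, and both passed against the 1 h arrays without 4sU (-1.02 and -1.28).

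Sod3 and Spon2 had the largest of the 15 rises. Sod3, the extracellular superoxide dismutase on chromosome 5, had 7.42, 7.36 and 7.13 in mock 3 h, against 2.89, 2.90, 2.90 and 3.19 in mock 1 h. It was below background on every 1 h array and well above it on every 3 h array (at least 9.87-fold higher, 4.33 ± 0.19, adjusted p = 1.27e-11). Spon2, a matrix protein of the spondin family, lay between 9.98 and 10.10 in mock 3 h, against 6.89, 4.39, 6.96 and 7.28 in mock 1 h (12.5-fold higher, 3.64 ± 0.58, adjusted p = 3.26e-04). The lowest 1 h array was again replicate 2, and without it the difference was 2.98.

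Ifi27l2a, a small interferon-inducible protein, had 9.74, 9.68 and 9.77 in mock 3 h, against 6.25, 6.76, 6.31 and 7.29 in mock 1 h (8.46-fold higher, adjusted p = 6.50e-06). No interferon had been added to these cells. Ramp3, which pairs with the calcitonin receptor-like receptor to bind adrenomedullin, had 10.12, 10.14 and 10.02 in mock 3 h, against 7.71, 5.71, 7.69 and 7.01 in mock 1 h (8.35-fold higher, adjusted p = 5.47e-05). Car6, a secreted carbonic anhydrase, was at 6.38, 6.41 and 6.42 in mock 3 h and below background in mock 1 h, at 3.44, 3.56, 3.26 and 3.30 (at least 5.29-fold higher). Nod1, a cytosolic sensor of bacterial peptidoglycan, had 6.60, 6.35 and 6.72 in mock 3 h, against 3.65, 3.35, 3.88 and 4.27 in mock 1 h (at least 5.62-fold higher, adjusted p = 8.94e-08). In these 4 genes, chosen without overlap like the falls, the mock 3 h arrays lay close together.

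Further rises were in Nfatc1, a calcineurin-regulated factor (2.09 ± 0.27), Rhox5, a homeobox gene of the X chromosome (2.04 ± 0.32), Cck, a peptide hormone (2.00 ± 0.28), and Igfbp4, which binds insulin-like growth factors (1.90 ± 0.44). Msln (2.20), Asb8 (2.29), Gse1 (1.96) and Eno2 (1.94) were called as well. These 4 had wide 1 h arrays, with SDs of 1.02 to 1.14 in mock 1 h and 0.09 to 0.19 in mock 3 h. Their calls were lost without mock 1 h replicate 2 and, depending on the gene, without 1 to 4 others of the 7 arrays (adjusted p = 0.0501 to 0.129).

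Lists other than those of early signalling were mixed, and many of their calls rested on single arrays. Over all genes 5.45% were called higher and 4.21% lower, and few calls in a list do not set it apart from those shares. Among 21 integrated and endoplasmic reticulum stress genes 5 were called higher and 0 lower, with a median of 0.43. Cth, which makes cysteine from cystathionine, averaged 7.99 ± 0.30 in mock 3 h and 6.50 ± 0.22 in mock 1 h (2.81-fold higher, adjusted p = 2.09e-04). Ddit3, the stress factor CHOP, rose by 0.90 ± 0.20, with a second probe set at -0.08. The calls of Sdf2l1 (1.72), Nupr1 (0.90) and Phgdh (0.61) were lost without mock 1 h replicate 2 or mock 3 h replicate 1, among others (adjusted p = 0.0520 to 0.144). Of 18 heat shock and oxidative stress genes 2 were called higher. Hsph1, a large chaperone, rose by 0.97 ± 0.14 (adjusted p = 1.56e-04), and by 2.50 in a second probe set (adjusted p = 0.0291), while the call of Srxn1 (1.05) was lost without mock 1 h replicate 2 or any mock 3 h array.

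Of 16 hypoxia and glycolysis genes 3 were called higher and 2 lower (median 0.47). P4ha2, a collagen prolyl hydroxylase, rose by 1.07 ± 0.16, while the calls of P4ha1 (0.73), Pgk1 (0.59), Hk2 (-0.96) and Vegfa (-0.65) were each lost without mock 3 h replicate 3. Vegfa had a second probe set at 1.06 that did not pass. Adm was not called at its probe set of highest mean (-1.80, adjusted p = 0.0709). A second probe set of Adm differed by -2.70 and was called (adjusted p = 3.68e-08). Of 28 ribosome biogenesis genes 3 were called higher (Polr1a, Bysl and Polr1b, 0.66 to 0.80) and 1 lower (Rrs1, -0.58), with a median of 0.45. All 4 calls were lost without mock 3 h replicate 1 or 2 (adjusted p up to 0.185). None of 25 cytosolic ribosomal proteins was called, and their median of 0.11 was close to that of all genes. At an unadjusted p under 0.05, 1 of them passed, as did 2384 of all 9421 genes.

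Growth arrest genes moved both ways, with 3 of 15 called higher and 2 lower. Txnip, an inhibitor of thioredoxin and of glucose uptake, had 8.02, 8.27 and 8.01 in mock 3 h, against 6.0, 7.44, 6.32 and 6.64 in mock 1 h (2.83-fold higher, 1.50 ± 0.37, adjusted p = 0.0132), and its second probe set rose by 2.83 (adjusted p = 0.00123). The call of the first was lost without mock 3 h replicate 2 (adjusted p = 0.0632), as were those of Foxo1 (0.79), Arrdc4 (0.73), Pdcd4 (-0.65) and Gas1 (-0.51). Of 29 cell cycle and mitosis genes 2 were called higher, close to the 5.45% of all genes. They were Ccne1, cyclin E1 (1.02 ± 0.25), and Aurka, a mitotic kinase (1.10 ± 0.28). Both calls were lost without mock 3 h replicate 1 (adjusted p = 0.0517 and 0.0503 or above). Of 16 p53 targets 1, Bbc3, was called lower (-0.96), a call lost without mock 3 h replicate 1 or 3. Btg2 was not called at its probe set of highest mean (-1.19, adjusted p = 0.604). A second probe set of Btg2 differed by -2.91 and was called (adjusted p = 3.79e-05). Acaca (0.63) alone was called of 24 sterol and fatty acid genes, and Pgk1 and Hprt of 10 housekeeping genes, all lost without mock 3 h replicate 1.

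Of 22 fibroblast and matrix genes 3 were called lower and 0 higher, and the median of 0.08 was near that of all genes. Postn, a matrix protein of the fasciclin family, had 8.18, 8.31 and 8.37 in mock 3 h, against 9.37, 9.38, 9.10 and 10.43 in mock 1 h (2.43-fold lower, adjusted p = 0.00945). The calls of Timp3 (-0.59) and Lum (-0.55) were lost without mock 1 h replicate 4 or mock 3 h replicate 1 (adjusted p up to 0.154). Of 20 interferon-stimulated genes, 9 lay below background at both times, 2 were called higher and 1 lower. Bst2, tetherin, which holds budding virions at the cell surface, had 6.22, 6.04 and 6.10 in mock 3 h, against 4.44, 3.53, 3.96 and 5.09 in mock 1 h (3.64-fold higher, adjusted p = 0.00593). Ifit2, which binds viral RNA, fell by 0.81 ± 0.14. The call of Irf1 (0.74) was lost without mock 1 h replicate 3 or any mock 3 h array (adjusted p = 0.0751 to 0.0892).

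**Figure D3:**
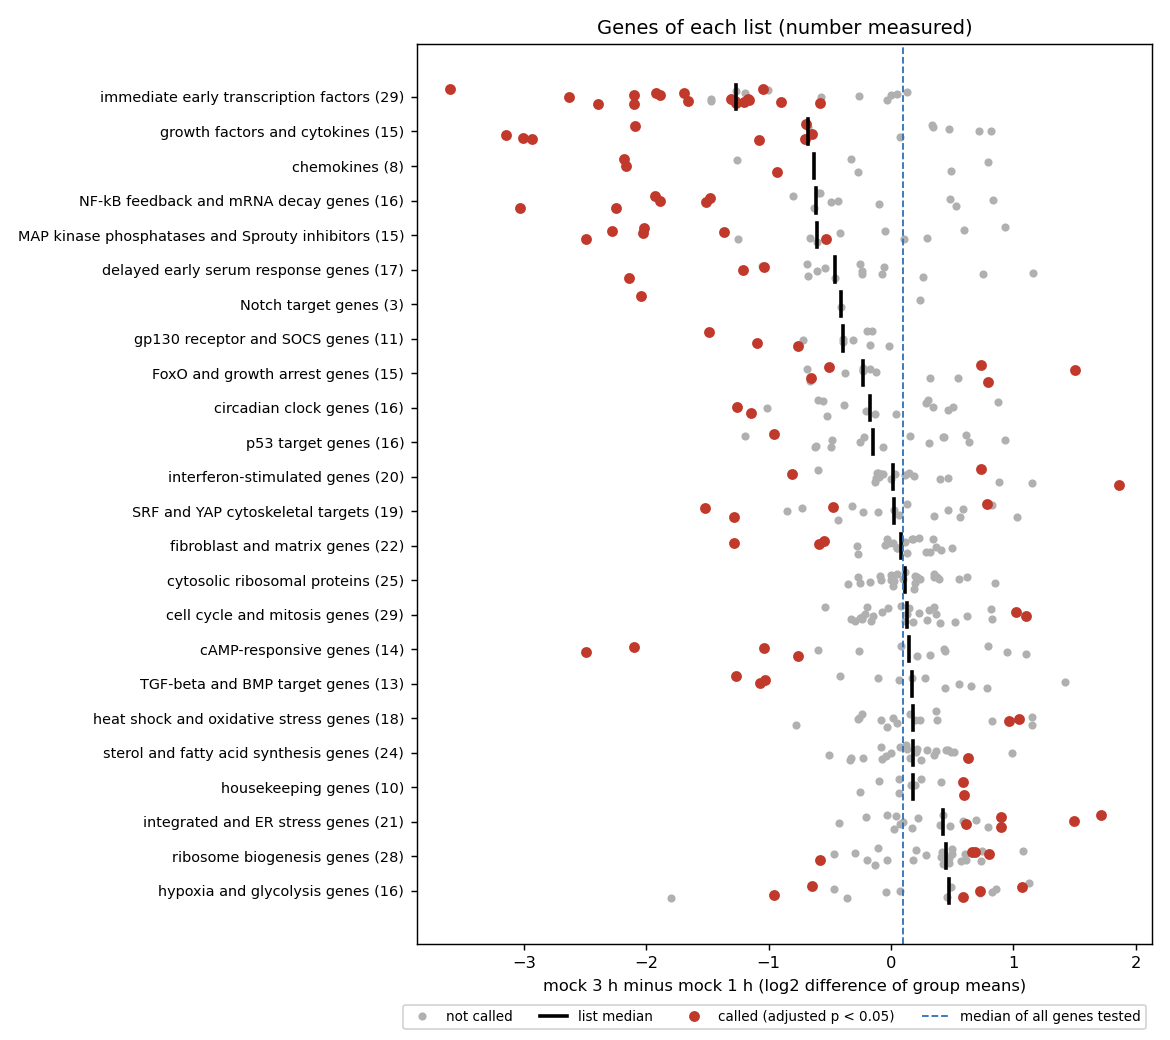
Difference of each measured gene (mock 3 h minus mock 1 h, log2) by list, with called genes in red, the list median as a black bar and the median of all genes as a dashed line at 0.10. The immediate early list has its median at -1.26, and the hypoxia and glycolysis list at 0.47.

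Mock 3 h cells were also set against the 1 h cells without 4sU. That comparison called 741 genes higher (7.87%) and 703 lower (7.46%) and shares the 3 h arrays, so values are given side by side. All 513 genes called higher and all 397 called lower had the same sign against these arrays, and 343 and 330 of them were called there too. Egr3 differed by -3.50, Hbegf by -3.45, Lif by -3.70, Sod3 by 4.43 and Spon2 by 3.55 against the 1 h cells without 4sU. Between 1 h cells with 4sU and those without, 0 genes (0%) were called in limma. An unadjusted p under 0.05 was found for 612 of 9421 genes, where mock 3 h against mock 1 h with 4sU had 2384 of 9421. By probe sets 6 were called between these 1 h groups, and 3888 with array weights, so this count depends on how the arrays are weighted. The dose of 500 µM used at 3 h was not matched by any 1 h array, and its effect cannot be told apart from that of time.

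Cells given interferon went through the same change of time, dose and window on other arrays. These arrays share more than that change with the mock arrays. Same-numbered arrays of mock, IFN-alpha and IFN-gamma cells deviated together from their group means, with correlations of 0.128 to 0.646 over 9 pairs at 3 h and 0.465 to 0.914 over 12 pairs at 1 h. Shared deviations of a time therefore enter the mock and interferon changes alike, and the overlap below is a description. In IFN-alpha cells 484 genes were called higher at 3 h (5.14%) and 334 lower (3.55%), and in IFN-gamma cells 706 (7.49%) and 422 (4.48%). Of the 513 genes called higher in mock 3 h, 240 were called higher in IFN-alpha cells (46.8% of the mock list and 49.6% of the IFN-alpha list) and 317 in IFN-gamma cells (61.8% and 44.9%). Of the 397 called lower, 258 were called lower in IFN-alpha cells (65.0% and 77.2%) and 275 in IFN-gamma cells (69.3% and 65.2%). Same signs were found for 509 of 513 in each interferon and for 389 and 386 of 397. Egr3 fell by 3.44 ± 0.19 in IFN-alpha cells and by 4.04 ± 0.19 in IFN-gamma cells. Sod3 was higher at 3 h by 4.46 ± 0.19 and 4.27 ± 0.19, and Car6 by 3.00 ± 0.18 and 3.56 ± 0.18.

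The difference between the changes was tested too. Among the 910 genes it passed in 13 for IFN-alpha (1.43%), 10 of those higher and 3 of those lower in mock 3 h, and in 16 for IFN-gamma (1.76%, 11 and 5), against 1.14% and 0.977% of all genes. With the replicate number as a block within each time, an alternative added after seeing the data, it passed in 36 (3.96%) and 72 (7.91%) of the 910, against 2.57% and 3.26% of all genes. The 910 were chosen by their mock change, which the test subtracts. Their shares can therefore exceed those of all genes through the choice alone, and no conclusion is drawn from the excess. Cxcl1 fell by 1.20 ± 0.15 in IFN-gamma cells, less than in mock cells (difference 0.96 ± 0.22, adjusted p = 0.0320). Nod1 was higher at 3 h by 4.46 ± 0.23 in IFN-gamma cells, more than in mock cells (difference 1.69 ± 0.32, adjusted p = 0.00751). Ifit2 and Irf1, which interferon itself induces, went the opposite way to mock cells in IFN-alpha cells (1.38 and -1.63 at 3 h against 1 h, adjusted p = 3.82e-07 and 2.58e-05 for the difference). Ccl2 did not pass in either interferon (-0.27 and -0.25). The difference from its fall in mock cells (1.91 and 1.93) did not pass without the block (adjusted p = 1.00 and 0.789) and passed with it (adjusted p = 2.44e-08 and 3.33e-08). With the block the differences of Spon2 (-1.67), Ramp3 (-1.91), F3 (1.50), Fst (1.67), Hbegf (0.48) and Lif (0.80) for IFN-gamma and of Bst2 for both (2.26 and 1.76) passed as well (adjusted p = 1.43e-05 to 0.0459), as did 8 other named genes for IFN-gamma and Fos for IFN-alpha. The calls of Cxcl1, Nod1, Ifit2 and Irf1 given above held.

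**Figure D4:**
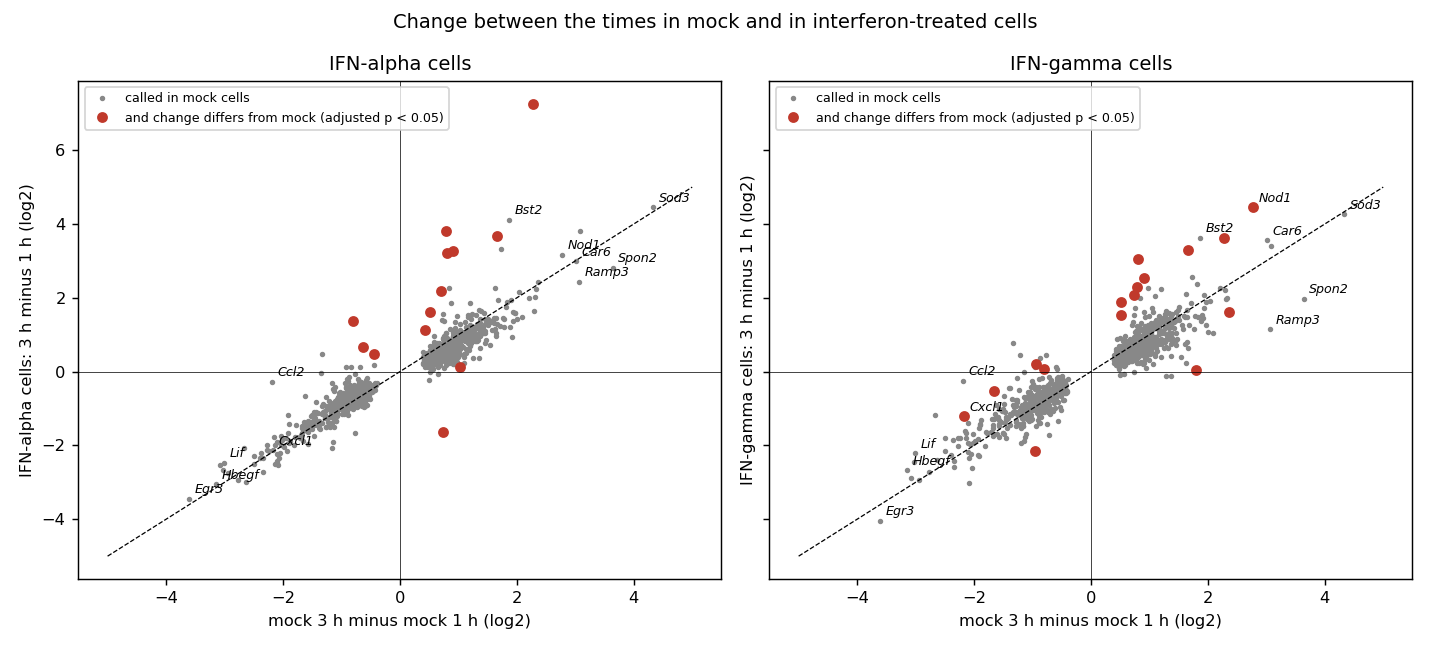
Change between 3 h and 1 h (log2) in IFN-alpha cells (left) and IFN-gamma cells (right) against that in mock cells, for the 910 genes called in mock cells, with the dashed line marking equal change. Red points are the 13 and 16 genes whose change differed from mock by the interaction test without a replicate block; Egr3 lies at -3.60 on the mock axis and Sod3 at 4.33 in both panels.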

How the data were processed

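The deposited table holds log2 signals that the authors made with GCRMA (background correction and between-array normalization, 1 value per probe set), per the submitters' processing notes; its version, and whether all arrays were run together, are not given in the sources used here. No further normalization was applied. Of 45101 probe sets 64 controls were left out, and 19305 lay above log2 4 on at least 3 of 24 arrays. Of these 16890 had a single gene symbol in GEO's platform annotation, and each gene was read from the probe set of highest mean over all arrays (9421 genes). The 7 groups were fitted together with limma 3.58.1 in R 4.3.3 (lmFit, eBayes, 17 residual degrees of freedom, two-sided). The fit took all arrays as independent, although same-numbered arrays within a time deviated together. Its 17 degrees of freedom therefore overstate what is known of the spread, and adjusted p-values may be too small. The test was run on simulated data in which every probe set and array varied independently. That check does not cover deviations shared across probe sets or arrays. The number of arrays limits the precision. Named genes are the 15 largest called rises and falls without overlap and with a mean above log2 6, up to 4 members of each of 26 lists, and a fixed set of 26. Tpm1, Rgs2, Pdcd4, Gas1, Ddit3, Phgdh, P4ha1, Vegfa, Bysl, Polr1b, Rrs1 and Irf1 fall outside this rule and were named after their values were seen. Ccn1, Adm and Btg2 were named for their other probe sets. The same holds for Stard4, Herpud1 and Bop1, where another probe set was called (-0.52, 0.65 and -1.43). Their probe sets of highest mean were not called (-0.51, 0.90 and 1.08). None of the genes named for other probe sets is in the counts of named genes given below. The comparison and the lists, which share some genes, were chosen with earlier results of these data known. Same-numbered mock 3 h and mock 1 h arrays had correlated deviations of 0.127, 0.125 and -0.232, so numbers were not taken as pairs across the times. Within a time every same-numbered pair of mock and interferon arrays correlated above 0.1. Over mock, IFN-alpha and IFN-gamma cells, the same number correlated best in all 12 pairs at 1 h and in 7 of 9 at 3 h. Mock and IFN-gamma replicate 1 at 3 h had 0.128, against 0.382 for another number. The block within each time thus rests on a pairing that is incomplete at 3 h. Promoter windows are RefSeq's, on GRCm38.p6.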

Additional observations from a re-analysis of the deposited data

Results flagged for a closer look

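In 8 of 101 named genes, 1 of the 4 mock 1 h arrays stood apart from the other 3 by Dixon's criterion, which chance meets in about 1 of 20 groups. Replicate 4 was high for Dusp1 (9.95), Dusp6 (10.1), Fos (10.3), Pdk4 (9.44) and Sod3 (3.19, below background). Without it, Dusp6 and Pdk4 still fell by 1.17 and 2.05, and the Fos call was lost (adjusted p = 0.0771). Replicate 2, the array of low 5′ signal, was low for Ccl2 (10.2) and Spon2 (4.39) and high for Errfi1 (12.8). Without it, Ccl2 differed by -2.60, Spon2 by 2.98 and Errfi1 by -1.93, all still called in limma.

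The change between the times differed from that in mock cells, by the interaction test without a replicate block, for 4 named genes, and each also passed with the block within each time. IFN-alpha minus mock was 2.19 for Ifit2 and -2.37 for Irf1. IFN-gamma minus mock was 0.96 for Cxcl1, 0.88 for Ifit2 and 1.69 for Nod1.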

How the results depend on the processing

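Against 2188 called probe sets (1052 higher, 1136 lower), the count was 822 (380, 442) with only the 7 mock arrays fitted, 4117 (2217, 1900) with array weights, 5573 (2975, 2598) with the replicate number as a block, 1278 (520, 758) for signals above log2 6, 3600 (1762, 1838) against 1 h arrays without 4sU, 4166 (2172, 1994) against both 1 h groups and 3521 (2053, 1468) without the arrays of low 5′ signal. Single arrays left out gave 984 to 2675 (437 to 1358 higher, 537 to 1317 lower). Across the times the block was a numbering only, as the mock numbers do not pair, and no mock 3 h replicate correlated best with its own number. Mock 3 h against 1 h without 4sU gave 12015 with array weights, 7299 with the replicate block, 2290 above log2 6 and 1295 without the low 5′ arrays. For 4sU against none the count of 6 was 3888, 17, 28 with values below 4 set to 4, 18 with no filter, 0 above log2 6 and 2 without the low 5′ arrays, which leaves 1 array without 4sU, assumed to vary like the other groups. For IFN-alpha it was 5798 with weights, 3896 with the block and 2902 without the low 5′ arrays, and for IFN-gamma 5351, 5803 with the block and 1624 above log2 6. The interaction, at 184 (IFN-alpha) and 160 (IFN-gamma), gave 281 and 317 with weights and 256 for IFN-gamma with the block. With the replicate block within each time it gave 389 and 527, though at 3 h only 7 of 9 pairs matched best by number. The cause of these shifts was not tested. Ier2 was -0.79 with weights, -1.04 without the low 5′ arrays and -1.04 to 0.81 with single arrays left out. Myc was 0.13 with the block, 0.39 and 0.067 against the other 1 h groups and -0.65 to 0.18 with single arrays left out, and Per1 -1.14 to 0.061. Second probe sets of Bysl (-0.088), Ddit3 (-0.085), Fst (0.21) and Vegfa (1.06) had the other sign; of 41 genes with a second probe set, 20 lost their call there and 17 kept it, 6 of them with a value moved by over 1.5 times. Of 101 named genes, 42 lost their call with only the 7 mock arrays, and all 101 kept their sign under quantile normalization and median centring.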
